A study of Mus musculus with 11 samples.

Results

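The subunits of oxidative phosphorylation that are encoded in the nucleus were followed through the synovial membrane of arthritic and sham mice on 2 diets. Members were the genes whose symbol starts with Nduf followed by a, b, c, s or v and a number, Sdha to Sdhd, genes starting with Uqcr, Cyc1, Cox4 to Cox8, and genes starting with Atp5. Cox7a1 and Cox8b, forms known from muscle and brown fat, are left out by the rule, and their values are given apart. The rule used no measured value. It gave 86 of 18804 genes, of which 41 fall by symbol to complex I, 4 to complex II, 9 to complex III, 15 to complex IV and 17 to complex V. The complex was read from the symbol alone, so Ndufa4 and Ndufa4l2 count under complex I and Cox7a2l under complex IV. An alternative grouping placed Ndufa4 in complex IV and left out Ndufa4l2 and Cox7a2l. Of the 86 members, 83 passed the filter on low counts.

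Oxidative phosphorylation takes place in the inner mitochondrial membrane. Complexes I and II pass electrons from NADH and succinate to ubiquinone, complex III passes them to cytochrome c and complex IV to oxygen. The proton gradient that complexes I, III and IV build drives complex V, the ATP synthase. Inflamed joint lining is known to be poor in oxygen, and synovial cells there shift towards glycolysis. Genes encoded in the mitochondrial genome were not analysed here.

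RNA was sequenced from the synovial membrane, the lining of the joint, of DBA/1 mice, an inbred strain prone to collagen-induced arthritis (CIA). All 11 libraries share this strain and tissue, and they form 4 groups: sham on the regular diet (n = 3), CIA on the regular diet (n = 3), sham on the high-fat diet (n = 2) and CIA on the high-fat diet (n = 3). The growth notes give a regular diet for all 11 libraries, which conflicts with the treatment labels. Groups follow the treatment labels, and each comparison of diets rests on them. Age and sex are not given, and nothing says that replicates a, b and c are separate mice, so p-values measure the spread between these libraries only, which may be technical. The study asked whether obesity changes arthritis.

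Total counts lay between 13677638 and 17631167 per library. Synovial fibroblast genes were present in every library, with a summed level of 18080 to 60160 CPM (counts scaled to a common library size with TMM factors) over 15 of 15 listed genes. These genes stood at 18080 to 20960 CPM in regular-diet sham and at 21640, 40750 and 18890 CPM for replicates a to c of regular-diet CIA. On the high-fat diet their level was 31690 and 38560 CPM in sham and 45420 to 60160 CPM in CIA. Regular-diet CIA replicate b stood apart from a and c in these genes and in the fat cell and citrate cycle genes described below. Regular-diet sham replicate a stood apart from b and c in the length trend. In bulk tissue, fewer cells of a type and less RNA per cell cannot be told apart.

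The windows around the start sites of 4 members are shown because each has the lowest adjusted p of its complex for CIA against sham, averaged over both diets, among members with 1 window. Complex II is not shown. Sequences are RefSeq's for GRCm38.p6 and run from 250 bases before to 50 bases after the start. Capitals mark letters that match a motif searched on both strands. The motifs were NRF1-like GCGCANGCG, ETS-like CCGGAAG, YY1-like AAGATGGC, ERR-like CAAGGTCA and SP1-like GGGCGG. Ndufv3 lies at chr17:31519865-31520164 (plus strand), Uqcr11 at chr10:80406772-80407071 (minus), Cox8a at chr19:7217567-7217866 (minus) and Atp5k at chr5:108434350-108434649 (minus).
Ndufv3: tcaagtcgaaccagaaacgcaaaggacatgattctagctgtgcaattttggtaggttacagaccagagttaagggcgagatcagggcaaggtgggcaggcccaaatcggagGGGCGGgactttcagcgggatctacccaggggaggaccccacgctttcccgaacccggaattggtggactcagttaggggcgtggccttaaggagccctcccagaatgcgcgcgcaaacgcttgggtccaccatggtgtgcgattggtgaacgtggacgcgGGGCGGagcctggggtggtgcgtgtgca
Uqcr11: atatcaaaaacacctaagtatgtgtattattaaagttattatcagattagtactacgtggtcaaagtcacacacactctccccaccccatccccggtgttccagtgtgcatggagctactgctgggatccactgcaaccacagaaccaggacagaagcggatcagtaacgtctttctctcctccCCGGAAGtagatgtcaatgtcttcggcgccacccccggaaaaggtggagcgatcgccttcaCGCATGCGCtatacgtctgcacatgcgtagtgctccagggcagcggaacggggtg
Cox8a: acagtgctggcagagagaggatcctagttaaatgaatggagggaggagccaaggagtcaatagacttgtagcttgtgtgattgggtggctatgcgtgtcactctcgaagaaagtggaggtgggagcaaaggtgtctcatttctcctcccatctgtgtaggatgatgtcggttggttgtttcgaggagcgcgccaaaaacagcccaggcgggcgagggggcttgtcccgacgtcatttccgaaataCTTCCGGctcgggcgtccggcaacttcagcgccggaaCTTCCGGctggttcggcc
Atp5k: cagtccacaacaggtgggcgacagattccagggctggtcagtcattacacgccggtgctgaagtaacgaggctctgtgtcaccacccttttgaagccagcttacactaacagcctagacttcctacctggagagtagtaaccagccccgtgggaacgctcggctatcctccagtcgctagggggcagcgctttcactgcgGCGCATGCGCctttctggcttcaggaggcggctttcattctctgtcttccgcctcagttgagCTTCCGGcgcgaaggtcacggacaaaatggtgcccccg

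The Ndufv3 window held 2 SP1-like matches, the Cox8a window 2 ETS-like matches, and the Uqcr11 window 1 ETS-like and 1 NRF1-like match. In the Atp5k window there was 1 ETS-like match and an NRF1-like palindrome that counts as 2 overlapping matches. Of 68 members with a window, 29.4% held the NRF1-like motif, against 7.03% of 27025 genes with a window. NRF1 is known as a regulator of genes of the respiratory chain. The ETS-like motif, the kind that GABP binds, was in 25% of the members and 9.93% of all genes. The YY1-like motif was in 14.7% against 3.19%, the ERR-like motif in 5.88% against 1.76% and the SP1-like motif in 41.2% against 38.2%. Among members with a window, the NRF1-like motif was in 7 of 15 of complex V, 8 of 34 of complex I and 1 of 11 of complex IV. A gene with several windows counted as holding a motif if any of them did, and its CpG number was the highest among them. By that count the members were also richer in CpG, with a median of 19 against 8 in all genes. Genes with more windows can score higher in both. These letter matches describe the windows and show no binding.

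The members together made up less of the RNA in CIA than in sham on both diets. Replicates a to c of regular-diet sham gave them 2.06%, 1.62% and 1.67% of all counts, and those of regular-diet CIA 1.16%, 0.894% and 1.32%. On the high-fat diet the share was 1.11% and 1.13% in sham and 0.843%, 0.639% and 0.616% in CIA. The sham and CIA libraries of each diet did not overlap. High-fat sham lay in the range of regular-diet CIA, and high-fat CIA was lowest. Per length, as a share of summed TPM (the length-scaled level), the members took 5.56% to 6.58% in regular-diet sham, 3.49% to 4.85% in regular-diet CIA, 3.80% to 3.98% in high-fat sham and 2.51% to 3.20% in high-fat CIA.

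The median over members of log2 CPM, set against the regular-diet sham mean, was 0.43, -0.24 and -0.18 in the regular-diet sham libraries and -0.89, -1.06 and -0.72 in regular-diet CIA. It was -0.81 and -0.72 in high-fat sham and -1.17, -1.68 and -1.68 in high-fat CIA. For all tested genes this median stayed between -0.02 and 0.03. Replicate a thus lay apart from b and c in regular-diet sham. In complex II the regular-diet CIA libraries stood at -0.47, -1.13 and -0.27, so replicate b was lower than a and c. It was also below high-fat CIA replicate a there (-1.01) and in complex III (-1.21 against -1.19). In complex IV, high-fat sham stood at -1.07 and -0.99 and regular-diet CIA at -1.01, -1.06 and -0.78. Complex V of high-fat CIA stood at -0.91, -1.43 and -1.5, against -1.34, -1.73 and -1.76 for complex I. Differences between complexes were not tested.

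**Figure D1:**
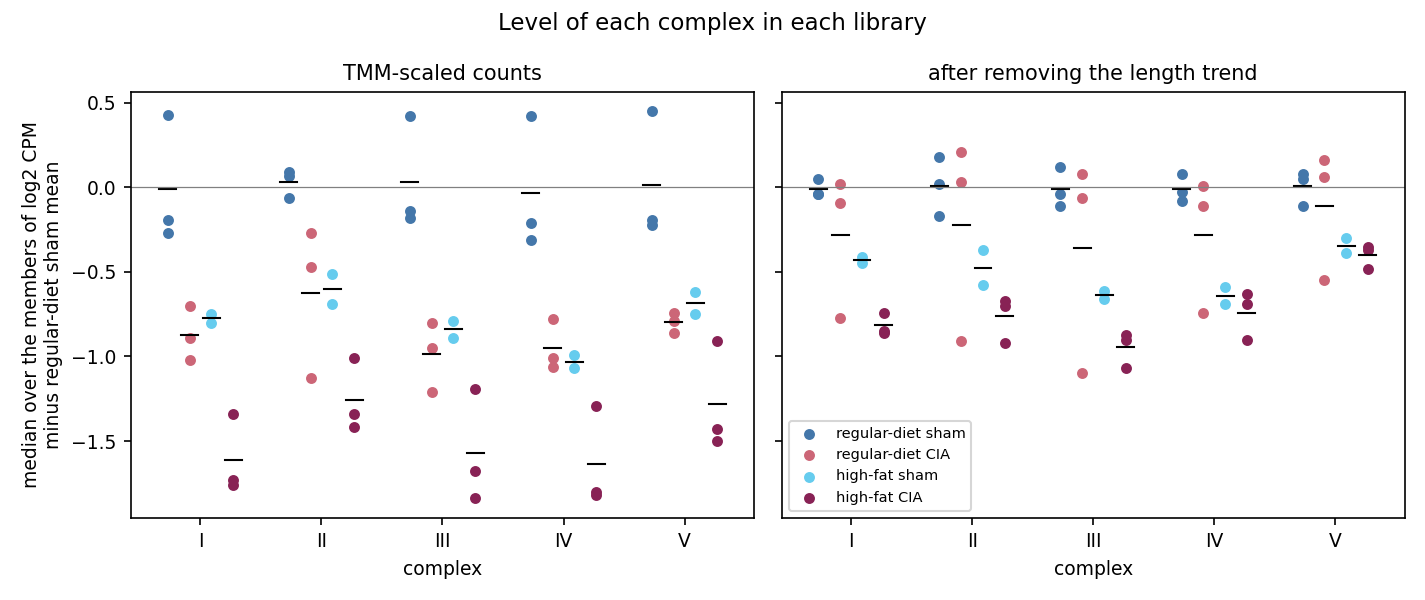
Median over the members of each complex of log2 CPM minus the regular-diet sham mean (y axis), by complex (x axis), with 1 point per library, coloured by group, and a bar at the group mean. On the left, with TMM-scaled counts, the bar of high-fat CIA is the lowest in all 5 complexes. Regular-diet CIA replicate b still lies below high-fat CIA replicate a in complexes II and III. On the right, the trend with gene length was removed. There regular-diet CIA replicates a and c lie among the sham libraries, except that c lies above them in complexes II (0.21) and V (0.16). Replicate b lies at -0.55 to -1.10.

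The first comparison asked how CIA and sham differ on the regular diet. Of 83 members tested, 82 had a lower mean in CIA, with a median log2 fold change of -0.90 against 0.06 over all tested genes. No member passed an adjusted p of 0.05 in edgeR, where 0.0269% of the 14892 tested genes did, and the lowest adjusted p of a member was 0.148. At an unadjusted p under 0.05, 68 members were lower, against 7.33% of all genes. DESeq2 called 50 members lower, against 2.51% of all genes, while limma voom called 0. Ndufa4l2, an alternative form of Ndufa4, was the member with a higher mean. In 71 members every CIA library was below every sham library, which was so for 13% of all genes.

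By complex, the median log2 fold change on the regular diet was -0.91 for complex I, -0.58 for II, -0.98 for III, -0.98 for IV and -0.77 for V. Groups did not overlap in 36 of 39 tested members of complex I, 3 of 4 of complex II, 8 of 9 of complex III, 11 of 14 of complex IV and 13 of 17 of complex V. The member with the lowest adjusted p in complex I was Ndufb11, an accessory subunit of the membrane arm (log2 fold change -0.91, SE 0.18, with an edgeR adjusted p of 0.148). In complex II it was Sdhc, a membrane anchor (-0.64 ± 0.22, adjusted p = 0.206), and in complex III Uqcr11, a small accessory subunit (-1.25 ± 0.24, adjusted p = 0.148). In complex IV it was Cox4i1 (-1.08 ± 0.25, adjusted p = 0.175) and in complex V Atp5l, the g subunit of the membrane part (-0.98 ± 0.25, adjusted p = 0.178).

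On the high-fat diet the same question gave 13 members that fell in CIA, 11 of complex I, 1 of complex III and 1 of complex IV, where 5.75% of all tested genes were called lower. The median log2 fold change was -0.73 over all members, against 0.02 over all tested genes. It was -0.81 for complex I, -0.62 for II, -0.69 for III, -0.62 for IV and -0.64 for V. Atp5g1, a source of the rotor ring, was the member with a higher mean, with 42.5 and 42.5 CPM in sham and 81.7, 29.4 and 34.0 CPM in CIA. Groups did not overlap in 67 members, against 27.7% of all genes. DESeq2 called 32 members, against 10.1% of all genes. The calls depended on the libraries kept, and edgeR called 1, 4 and 12 members without high-fat CIA replicates b, c and a. They need both high-fat sham libraries, since leaving out either leaves 1 in that group. The regular-diet libraries enter only through the shared spread. Without regular-diet sham replicate b, sham replicate c or CIA replicate a, 6 members were called, and without regular-diet CIA replicate b 41 were. Leaving out regular-diet sham replicate a gave 17, and CIA replicate c 10. No share of all tested genes was taken for these fits.

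Averaged over both diets, 63 of 83 members fell in CIA and 0 rose, where 10.8% of all tested genes fell. These were 34 of 39 members of complex I, 2 of 4 of complex II, 8 of 9 of complex III, 9 of 14 of complex IV and 10 of 17 of complex V. The median log2 fold change was -0.88, -0.53, -0.77, -0.76 and -0.70 in complexes I to V, and -0.77 over all members. DESeq2 called 68 members lower, against 14.4% of all genes. Without high-fat sham replicate a 37 members were called, and without replicate b 0.

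**Figure D2:**
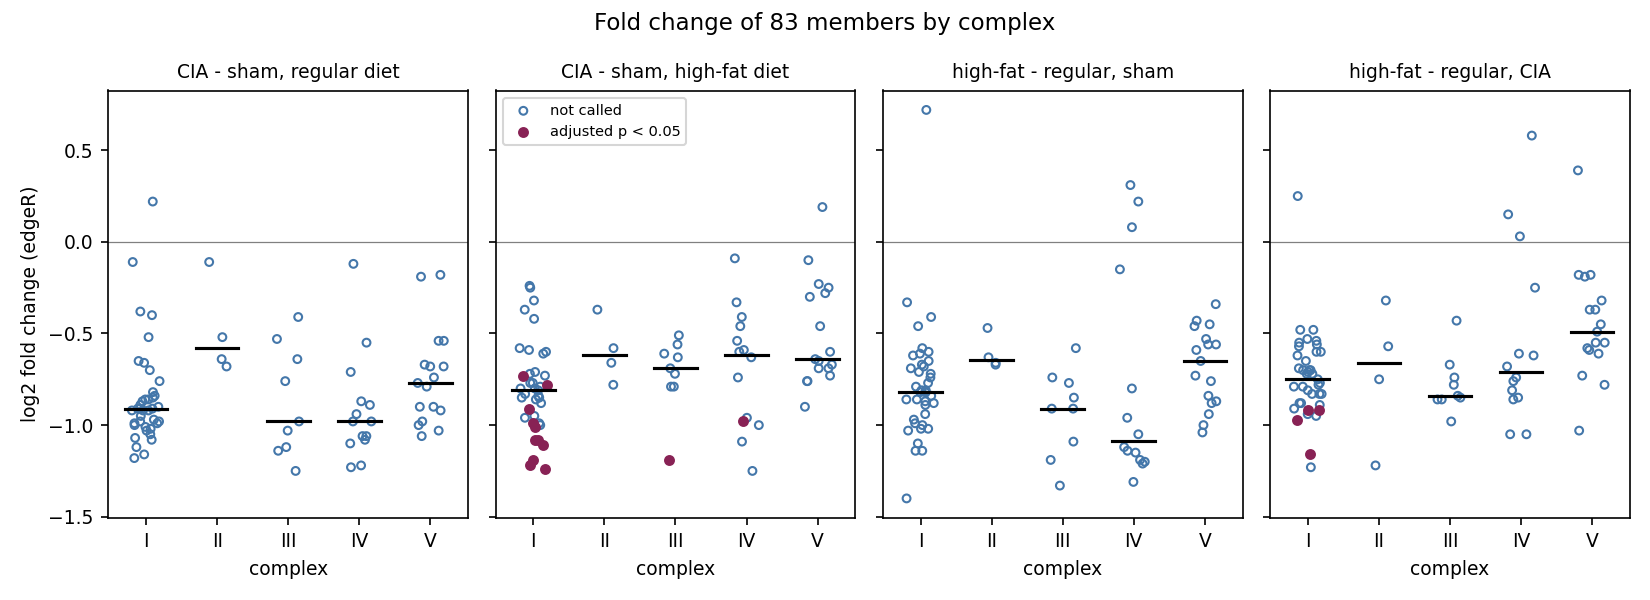
Log2 fold change from edgeR (y axis) of each of the 83 tested members by complex (x axis) in 4 comparisons, with a bar at the median of the complex and filled points for an adjusted p under 0.05. Most points lie below 0 in each comparison, and the filled ones are 13 members for CIA against sham on the high-fat diet and 4 members for high-fat against regular diet in CIA.

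Complex I is the largest of the complexes, with a peripheral arm that holds the iron-sulphur clusters and a membrane arm that pumps protons. Ndufs7, which holds the last cluster before ubiquinone, stood at 148, 100.2 and 104 CPM in regular-diet sham and at 56.1, 55.7 and 75.3 CPM in regular-diet CIA. It stood at 71.7 and 78.2 CPM in high-fat sham and at 39.1, 28.5 and 27.8 CPM in high-fat CIA. Sham and CIA did not overlap on either diet. On the high-fat diet Ndufs7 had the largest change among the called members (log2 fold change -1.24 ± 0.23, adjusted p = 0.0209, where ± gives the SE).

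Ndufv3, an accessory subunit near the NADH binding site, stood at 178, 113 and 139 CPM in regular-diet sham and at 71.7, 67.6 and 89.8 CPM in regular-diet CIA. Its level was 83.5 and 90.7 CPM in high-fat sham and 37.2, 43.7 and 40.3 CPM in high-fat CIA. The high-fat CIA libraries thus lay below all others. Ndufv3 fell on the high-fat diet (log2 fold change -1.11 ± 0.21, adjusted p = 0.0209) and averaged over both diets (-1.01 ± 0.14, adjusted p = 0.00562).

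The other subunits of the peripheral arm called on the high-fat diet were Ndufs3, a core subunit (-0.91 ± 0.20, adjusted p = 0.0264), Ndufs6 (-1.01 ± 0.27, adjusted p = 0.0438) and Ndufa7 (-1.08 ± 0.25, adjusted p = 0.0301). Of the membrane arm, Ndufb2, Ndufb9, Ndufb10 and Ndufb11 fell, with log2 fold changes of -1.19, -1.22, -0.99 and -0.73 and adjusted p of 0.0259 to 0.0437. Ndufb2 had the largest change of complex I averaged over both diets (-1.12 ± 0.17, adjusted p = 0.00634), with means of 52.1 ± 16.6 and 25.1 ± 2.29 CPM in regular-diet sham and CIA (SD, n = 3 each). Ndufa13, also known as GRIM-19, fell on the high-fat diet (-1.08 ± 0.23, adjusted p = 0.0257) and averaged over both diets (-1.04 ± 0.15, adjusted p = 0.00634). Ndufa10 fell on the high-fat diet (-0.78 ± 0.22, adjusted p = 0.0478).

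Complex II, succinate dehydrogenase, also works in the citrate cycle. Sdha, its flavoprotein and the member of highest mean TPM in the complex, stood at 648, 730 and 778 CPM in regular-diet sham and at 779, 295 and 922 CPM in regular-diet CIA. It stood at 447 and 455 CPM in high-fat sham and at 296, 304 and 256 CPM in high-fat CIA. On the regular diet the groups overlapped, since CIA replicates a and c were as high as any sham library and replicate b was far lower.

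Sdhb, the iron-sulphur subunit, stood at 195, 171 and 197 CPM in regular-diet sham, 119, 84.7 and 148 CPM in regular-diet CIA, 103 and 135 CPM in high-fat sham, and 86.0, 66.8 and 55.6 CPM in high-fat CIA. It did not pass on the high-fat diet (log2 fold change -0.78 ± 0.26, adjusted p = 0.0777) and fell averaged over both diets (-0.73 ± 0.18, adjusted p = 0.0184). Sdhc fell averaged over both diets as well (-0.61 ± 0.16, adjusted p = 0.0264).

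Complex III holds cytochrome b, cytochrome c1 and the Rieske protein among smaller subunits. Uqcr11 stood at 255, 176 and 154 CPM in regular-diet sham and at 79.4, 63.9 and 102 CPM in regular-diet CIA. It stood at 94.2 and 113 CPM in high-fat sham and at 54.1, 41.7 and 40.4 CPM in high-fat CIA, with no overlap between sham and CIA on either diet. Uqcr11 was the member of complex III called on the high-fat diet (-1.19 ± 0.26, adjusted p = 0.0283) and had the largest change of all members averaged over both diets (-1.22 ± 0.18, adjusted p = 0.00634).

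The small subunits Uqcrq (-0.96 ± 0.20, adjusted p = 0.0118) and Uqcr10 (-0.95 ± 0.20, adjusted p = 0.0119) fell averaged over both diets. Uqcrh, the hinge protein beside cytochrome c1 and the member of highest mean TPM in complex III, stood at 222 to 415 CPM in regular-diet sham, 136 to 154 CPM in regular-diet CIA, 162 and 163 CPM in high-fat sham and 91.9 to 135 CPM in high-fat CIA.

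Complex IV, cytochrome c oxidase, takes its regulatory subunits from the nucleus. Cox4i1, the common form of subunit 4 and the member of highest mean TPM in the complex, stood at 1243, 855 and 906 CPM in regular-diet sham and at 479, 366 and 574 CPM in regular-diet CIA. Its level was 486 and 542 CPM in high-fat sham and 312, 248 and 222 CPM in high-fat CIA. High-fat sham lay within the range of regular-diet CIA. Cox4i1 fell on the high-fat diet (-0.98 ± 0.27, adjusted p = 0.0483) and averaged over both diets (-1.03 ± 0.19, adjusted p = 0.00835).

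Cox8a, the form of the smallest subunit found in most tissues, stood at 712, 369 and 397 CPM in regular-diet sham and at 216, 152 and 261 CPM in regular-diet CIA. It stood at 205 and 225 CPM in high-fat sham and at 115, 95.3 and 93.0 CPM in high-fat CIA. Replicate a was far above the other regular-diet sham libraries. Averaged over both diets Cox8a had the largest called change of complex IV (-1.16 ± 0.22, adjusted p = 0.00875), and Cox6c fell as well (-0.92 ± 0.18, adjusted p = 0.0103).

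Complex V joins a membrane rotor to a catalytic head. Atp5k, the e subunit of the membrane part, stood at 120, 79.6 and 71.9 CPM in regular-diet sham and at 45.8, 33.3 and 50.4 CPM in regular-diet CIA. It stood at 49.99 and 56.9 CPM in high-fat sham and at 39.6, 22.9 and 23.5 CPM in high-fat CIA, without overlap of sham and CIA on either diet. Atp5k fell averaged over both diets (-0.98 ± 0.20, adjusted p = 0.0118). So did Atp5j, coupling factor 6 (-0.72 ± 0.16, adjusted p = 0.0144), and Atp5d, the delta subunit of the central stalk (-0.75 ± 0.17, adjusted p = 0.0156).

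No member of complex V passed on the high-fat diet alone, where Atp5d came nearest (-0.76 ± 0.25, adjusted p = 0.0783). The member of highest mean TPM in complex V was Atp5e, the epsilon subunit, at 1573 to 2161 TPM in regular-diet sham and 793 to 1046 TPM in high-fat CIA. Its effective length of 156 bases makes this level depend strongly on how length was counted. Atp5b, the catalytic beta subunit, was chosen after its values were seen. It stood at 1247, 1745 and 1697 CPM in regular-diet sham and at 1534, 618 and 1957 CPM in regular-diet CIA, so replicate b was low there as it was for Sdha.

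**Figure D3:**
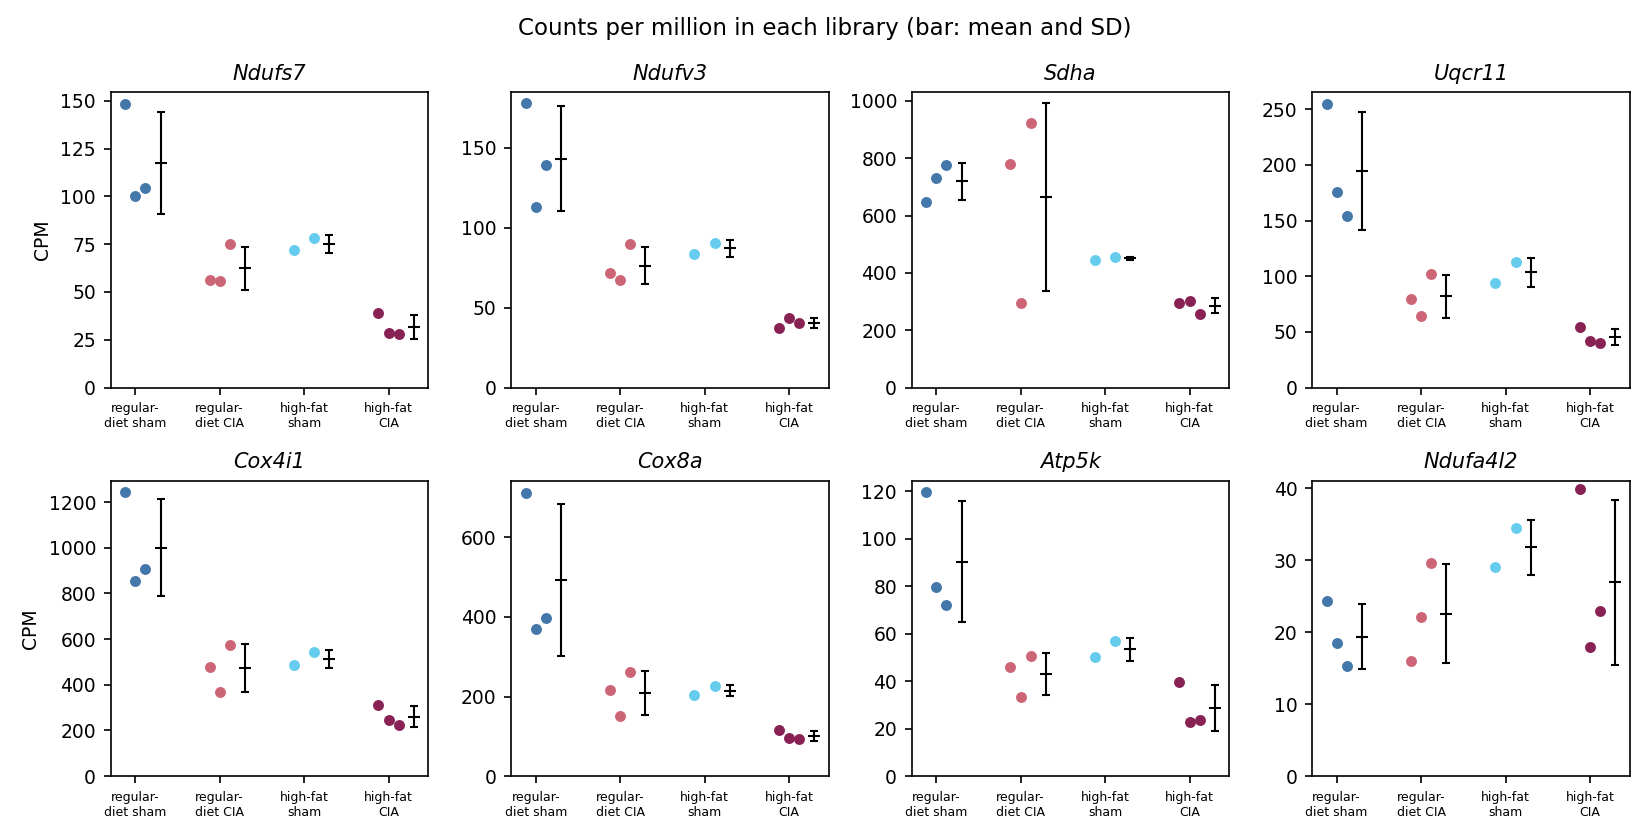
CPM (y axis, from 0) of 8 members in each library of the 4 groups (x axis), with 1 point per library and a bar for the mean and SD beside each group. Sham and CIA libraries separate on both diets for Ndufs7, Ndufv3, Uqcr11, Cox4i1, Cox8a and Atp5k, whereas Sdha of regular-diet CIA spans 295 to 922 CPM and the groups of Ndufa4l2 overlap.

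Some subunits have an alternative form, and these were read as log2 ratios of CPM after adding 0.1, with an exact two-sided permutation test that kept diets apart (200 arrangements, smallest possible p 0.005). Ndufa4l2 is an alternative form of Ndufa4 that is known to rise with HIF1 in low oxygen. The ratio of Ndufa4l2 to Ndufa4 was -4.10, -3.87 and -4.02 in regular-diet sham and -3.36, -1.91 and -2.63 in regular-diet CIA. It was -2.44 and -2.22 in high-fat sham and -1.5, -2.08 and -1.79 in high-fat CIA, so CIA lay above sham on each diet. The CIA minus sham difference was 1.36 on the regular and 0.54 on the high-fat diet, with a mean of 0.95 (exact p = 0.01, p = 0.03 adjusted over the 3 ratios).

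The numerator itself overlapped between sham and CIA. Ndufa4l2 stood at 24.3, 18.5 and 15.3 CPM in regular-diet sham, 15.97, 22.1 and 29.6 CPM in regular-diet CIA, 29.1 and 34.5 CPM in high-fat sham and 39.8, 17.9 and 23.0 CPM in high-fat CIA. Ndufa4, in contrast, stood at 419, 273 and 250 CPM in regular-diet sham and 165, 83.5 and 184 CPM in regular-diet CIA. Its level was 159 and 161 CPM in high-fat sham and 113, 75.8 and 79.8 CPM in high-fat CIA. After the trend with length was removed, the mean difference in ratio was 0.78 and its adjusted exact p 0.06.

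Cox4i2, the form of subunit 4 that is induced in low oxygen and abundant in lung, was low. It stood at 5.77 to 8.51 CPM in regular-diet sham and 4.4 to 7.5 CPM in regular-diet CIA. On the high-fat diet it was 8.12 and 9.28 CPM in sham and 2.33 to 5.65 CPM in CIA. The CIA minus sham difference in the Cox4i2 to Cox4i1 ratio was 0.94 on the regular diet, where CIA lay above sham without overlap. It was -0.33 on the high-fat diet, with a mean of 0.31 over the diets (exact p = 0.475, adjusted p = 0.475). Cox6a2, the muscle form, was at most 2.23 CPM, in regular-diet sham replicate c, which also held the most skeletal muscle RNA. Its ratio to Cox6a1 differed by 0.83 (exact p = 0.375, adjusted p = 0.475).

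Of the 3 members below the filter, Cox7b2, a form known from testis, had 0 counts in all 11 libraries. Ndufb4b had 4.31 and 2.70 estimated counts in regular-diet CIA replicate b and high-fat sham replicate b, and 0 elsewhere. Ndufs6b had at most 4 counts. Ndufb4b and Ndufs6b are near copies of Ndufb4 and Ndufs6, and the counting may have split reads between copy and parent, which leaves both uncertain. Ndufb4c, by its symbol another copy of Ndufb4, passed the filter at 12.5 to 48.2 CPM and counts under complex I. The same doubt applies to it.

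The forms left out by the rule were lower in CIA libraries than in the sham libraries of the same diet. Cox8b stood at 222, 126 and 148 CPM in regular-diet sham, 55.5, 25.2 and 76.2 CPM in regular-diet CIA, 44.0 and 56.0 CPM in high-fat sham and 2.56, 23.9 and 12.9 CPM in high-fat CIA. Cox7a1 stood at 6.60 to 8.98, 1.70 to 5.79, 1.46 to 1.82 and 0.582 to 1.15 CPM in the same order of groups. Neither passed on a single diet (edgeR adjusted p of 0.0961 to 0.263), and both fell averaged over the diets, with log2 fold changes of -1.80 ± 0.47 for Cox8b (adjusted p = 0.0245) and -1.06 ± 0.34 for Cox7a1 (adjusted p = 0.0468).

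The effect of the diet was compared within sham and within CIA. Each of these comparisons shares libraries with the comparisons of CIA and sham above. In sham, 79 of 83 members had a lower mean on the high-fat diet, with a median log2 fold change of -0.81, and the medians of complexes I to V were -0.82, -0.64, -0.91, -1.09 and -0.65. No member and 0% of all tested genes passed in edgeR, where the lowest adjusted p of a member was 0.396. At an unadjusted p under 0.05, 63 members were lower, against 4.74% of all genes. DESeq2 called 14 members, against 0.645% of all genes, and limma voom 0. Groups did not overlap in 76 members that were lower, against 22.1% of all genes, and in 1 that was higher, Ndufa4l2.

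In CIA, 4 members were lower on the high-fat diet, all of complex I, where 2.89% of all tested genes were called lower. These were Ndufa10 (log2 fold change -1.16 ± 0.20, adjusted p = 0.0333), Ndufs3 (-0.92 ± 0.18, adjusted p = 0.0346), Ndufv3 (-0.92 ± 0.19, adjusted p = 0.0360) and Ndufs7 (-0.97 ± 0.21, adjusted p = 0.0405). Ndufa10 stood at 160, 127 and 189 CPM in regular-diet CIA and at 79.7, 69.7 and 62.7 CPM in high-fat CIA. The medians of complexes I to V were -0.75, -0.66, -0.84, -0.71 and -0.49. Groups did not overlap in 45 members, against 13.5% of all genes, which were 31 of 39 in complex I and 2 of 17 in complex V. DESeq2 called 35 members, against 8.47% of all genes. Leaving out any 1 library ended the edgeR calls, except regular-diet CIA replicate b, without which 39 members were called.

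The change of CIA with diet was tested as an interaction. In edgeR 0 members and 0% of all tested genes passed, and 0 members had an unadjusted p under 0.05, against 4.26% of all genes. DESeq2 called 0 members, against 0.148% of all genes, and limma voom 0. The median interaction was 0.14 over all members and lay between -0.02 and 0.33 in the complexes.

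Assembly factors build the complexes without staying in them. Averaged over both diets, 6 of 17 tested factors of complex I fell, 1 of 4 of complex II, 3 of 6 of complex III, 7 of 22 of complex IV and 2 of 5 of complex V, with 0 rising, where 10.8% of all tested genes fell. Median log2 fold changes were -0.40, -0.56, -0.55, -0.16 and -0.46. With the length-trend offset described below, 0, 0, 1, 1 and 0 of these factors were called lower, against 3.53% of all tested genes. Their medians were then -0.12, -0.13, -0.30, -0.07 and -0.17. The difference from the subunits was not tested. Fmc1, an assembly factor of the ATP synthase, changed by -1.27 ± 0.16 (adjusted p = 0.00523), Cox19, a copper-related factor of complex IV, by -0.96 ± 0.15 (adjusted p = 0.00648) and Ndufaf3 by -0.86 ± 0.17 (adjusted p = 0.0105). Uqcc3 changed by -0.94 ± 0.17 (adjusted p = 0.0081) and Sdhaf3 by -0.75 ± 0.22 (adjusted p = 0.035). Ndufab1, a complex I subunit whose symbol the rule does not match, fell as well (-0.77 ± 0.19, adjusted p = 0.0221).

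Of 19 genes of electron carriers, 8 fell averaged over both diets and 0 rose (median -0.44), against 10.8% of all tested genes lower. With the length-trend offset 0 of them were called lower, against 3.53% of all tested genes, and the median was -0.30. Etfb, a subunit of the flavoprotein that feeds electrons from fatty acid oxidation, changed by -1.20 ± 0.18 (adjusted p = 0.00634) Coq10a, a ubiquinone-binding protein, by -0.88 ± 0.13 (adjusted p = 0.00634) and Coq6, of ubiquinone synthesis, by -0.62 ± 0.15 (adjusted p = 0.0186). In the citrate cycle 5 of 13 enzymes fell and 0 rose (median -0.44), and with the offset 0 were called lower (median -0.33). Those that fell included Idh3g (-0.70 ± 0.18, adjusted p = 0.0249), Fh1 (-0.62 ± 0.17, adjusted p = 0.0281) and Suclg1 (-0.84 ± 0.24, adjusted p = 0.032). The summed level of the citrate cycle was 3541, 1828 and 4081 CPM for replicates a to c of regular-diet CIA, against 3693 to 4255 CPM in regular-diet sham, so replicate b was the low one. Of the outer mitochondrial membrane, 2 of 13 genes fell, both small subunits of the import channel, Tomm7 (-1.02 ± 0.17, adjusted p = 0.00692) and Tomm6 (-0.66 ± 0.17, adjusted p = 0.0227), and the median was -0.23. That share is near the 10.8% of all tested genes, and with the offset 1 was called lower, with a median of -0.03.

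Regulators of mitochondrial biogenesis did not move one way. Of 20 tested, 1 fell and 2 rose averaged over both diets, with a median of 0.00, where 10.8% of all tested genes fell and 13% rose. These shares are near the background, and with the offset 0 regulators were called lower, against 3.53% of all tested genes. Sirt3, a mitochondrial deacetylase, fell (-0.88 ± 0.16, adjusted p = 0.00886), while Gabpb1, a subunit of GABP (0.47 ± 0.11, adjusted p = 0.016), and Pprc1, a coactivator related to PGC-1alpha (0.82 ± 0.25, adjusted p = 0.0396), rose. In CIA, 3 of 20 regulators were lower on the high-fat diet, against 2.89% of all tested genes. They were Ppara (-2.64 ± 0.58, adjusted p = 0.0405), Esrra (-0.84 ± 0.20, adjusted p = 0.0486) and Sirt3 (-1.23 to -0.85 with a library left out). With the offset 2 regulators were called lower there, against 1.88% of all tested genes.

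Gene length moved with these results. The effective length of the 83 members had a median of 433 bases, against 2594 bases over the tested genes with a length, and 67 members were in the shortest of 8 equal length classes (up to 1044 bases). All tested genes of that class had a median log2 fold change of -0.49 for CIA on the regular diet and -0.38 on the high-fat diet. The longest class had 0.38 and 0.48. The 67 members in the shortest class had -0.92 and -0.73, below its median. The 10 members in the next class had -0.64 and -0.75, against -0.25 and -0.27 for all its genes. In the longer classes that held a few members, the member median was also below the class median on each diet. Among the 83 members, length and log2 fold change had a Spearman's rho of 0.63 on the regular diet and 0.13 on the high-fat diet, as a description across genes of the same libraries. In single libraries the shortest class lay at -0.67, -0.24 and -0.60 in regular-diet CIA, so replicate b had a smaller trend than a and c. In regular-diet sham it lay at 0.34, -0.18 and -0.17, so replicate a stood apart in the reference group, as it did in the member median.

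**Figure D4:**
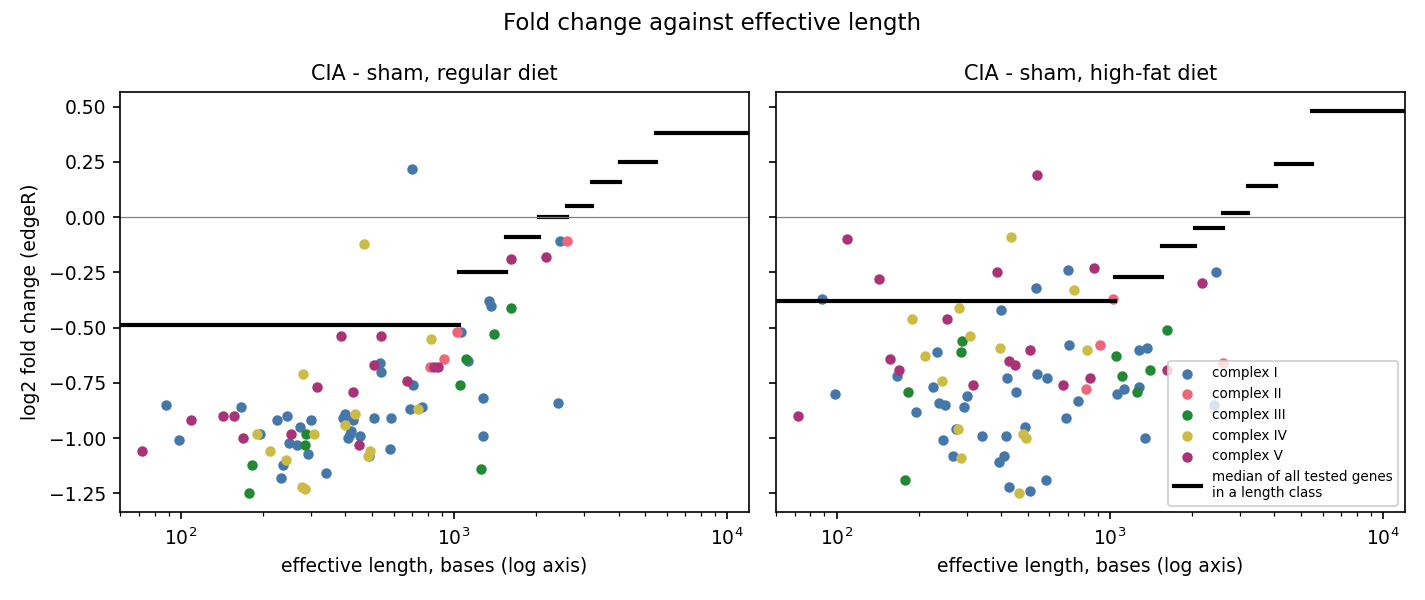
Log2 fold change from edgeR (y axis) against effective length in bases (x axis, log scale) for CIA against sham on each diet, with 1 point per member coloured by complex and black bars for the median of all tested genes in each of 8 length classes. The bars climb from -0.49 to 0.38 on the regular diet and from -0.38 to 0.48 on the high-fat diet, and most members lie below the bar of their class.

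A fit that removed each library's trend with length was added after seeing the data. Averaged over both diets, it called 7 members lower, 6 of complex I and 1 of complex III, against 3.53% of all genes. They were Ndufa2, Ndufa11, Ndufa13, Ndufb2, Ndufb7, Ndufs7 and Uqcrq. Ndufa11 and Uqcrq have effective lengths of 2400 and 1255 bases, against the member median of 433 bases. How far their calls rest on these lengths was not tested. On the high-fat diet the fit without the length trend called 0 members, against 1.1% of all genes. The medians of all members were -0.21 on the regular diet and -0.29 on the high-fat diet. Within CIA the diet difference moved less: 6 members were called lower, against 1.88% of all genes, with a median of -0.53. Since most members are short, the length trend and the fall of the members cannot be told apart in these libraries.

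Fat cell genes moved with the members too. The summed level of 18 adipocyte genes was 47900, 36830 and 40490 CPM for replicates a to c of regular-diet sham and 26060, 10110 and 34370 CPM in regular-diet CIA. It was 20050 and 24840 CPM in high-fat sham and 2194, 8474 and 7646 CPM in high-fat CIA, with 18 of 18 genes in the table. After the length trend was removed, the member median was -0.06, -0.77 and 0.06 for replicates a to c of regular-diet CIA, and -0.49 and -0.42 in high-fat sham. It was -0.76, -0.69 and -0.85 in high-fat CIA and -0.08 to 0.06 in regular-diet sham. The 4 libraries with the least adipocyte RNA were thus the 4 with the lowest member medians.

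With the mean of the adipocyte genes as a covariate, 55 members were called lower averaged over both diets, against 11.1% of all genes, and the median of all members moved away from 0, from -0.77 to -0.95. With the length trend also removed, 1 was called, against 0.947% of all genes, and the median of all members was -0.01. Fat content and group are closely tied here, so their parts cannot be told apart.

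**Figure D5:**
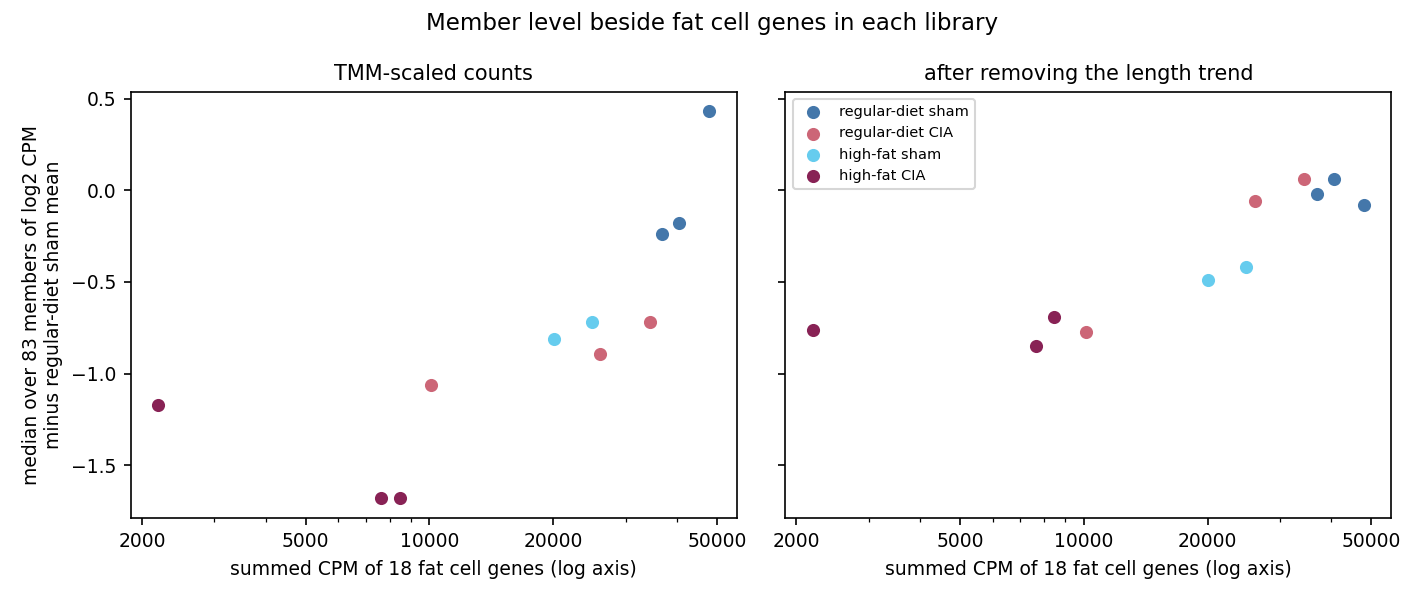
Median over 83 members of log2 CPM minus the regular-diet sham mean (y axis) against the summed CPM of 18 adipocyte genes (x axis, log scale), 1 point per library, before (left) and after (right) the length trend was removed. On the right, regular-diet CIA replicate b (10110 CPM) lies at -0.77, with the high-fat CIA libraries, and replicates a and c lie with regular-diet sham.

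Skeletal muscle genes, of a tissue rich in mitochondria, summed to 73.1, 68.5 and 1363 CPM in regular-diet sham, 49.1 to 67.5 CPM in regular-diet CIA, 135 and 325 CPM in high-fat sham and 32.1 to 90.7 CPM in high-fat CIA, with 22 of 22 in the table. With their mean as a covariate, 33 members were called lower averaged over both diets, against 2.79% of all genes. Red cell genes summed to 2714 to 7337, 297 to 1538, 1295 to 6157 and 137 to 1644 CPM in the same order of groups over 12 of 12 genes, and neutrophil genes to 85.0 to 317, 545 to 1283, 42.5 to 2361 and 1657 to 8723 CPM over 12 of 12 genes. Macrophage genes summed to 1245 to 1626, 1457 to 2246, 2196 to 2642 and 3404 to 4750 CPM over 13 of 13 genes. T and NK cell genes summed to 6.12 to 6.88, 11.2 to 34.9, 5.61 to 14.7 and 18.4 to 44.3 CPM. Of 13 listed genes, 12 were in the table. Averaged over both diets, 6 of these 12 and 6 of 15 synovial fibroblast genes rose in CIA. So did 5 of 13 macrophage and 4 of 12 neutrophil genes, where 13% of all tested genes rose. In the same comparison 9 of 20 tested skeletal muscle genes and 3 of 12 red cell genes fell, against 10.8% of all tested genes. The part of these lists in the results was not tested.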

How the data were processed

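Expected counts per gene, FPKM and TPM of 11 libraries were deposited by the authors in 1 table, and per the file headers each library has a column of each. The submitters' processing notes name Bowtie2 2.2.5, RSEM 1.2.12, DESeq2 1.4.5 and GRCm38.p6, with no roles given. Strandedness is not given in the sources used here, so reads from a gene and an antisense partner cannot be told apart. The deposited expected counts (11.98% of values not whole at a tolerance of 0.001) were rounded. Of 18804 genes, 14892 passed edgeR's filterByExpr.

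Counts were tested with edgeR 4.0.16 in R 4.3.3 (TMM factors 0.919 to 1.068, robust quasi-likelihood fit, 1 mean per group over all 11 libraries), with Benjamini-Hochberg adjustment over all tested genes and a threshold of 0.05. The SE of a log2 fold change is its size over the root of F. Log2 CPM used a prior count of 2. Effective lengths were derived from the deposited FPKM (at least 1) and counts, and 1063 tested genes had none. The fit was tested on simulated data. Alternatives used DESeq2 1.42.0, limma 3.58.1, other scalings and filters, a replicate block, marker covariates, and each library left out in turn. A length-trend offset (lowess, span 0.3), alone and with the adipocyte covariate, was added after seeing the data.

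Members and lists were chosen with earlier results of these data known. Genes named with values were, per complex, the highest mean TPM, the largest called change or lowest adjusted p in each CIA comparison, called members (3 per complex where over 30 were called), members below the filter and the isoform pairs, and of other pathway lists up to 3 called genes. Marker lists are given as summed CPM. Deviations from the group mean correlated at -0.426 to 0.463 between same-letter libraries and at -0.548 to 0.585 between different-letter ones. With groups this small, that cannot decide whether letters pair samples.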

Additional observations from a re-analysis of the deposited data

How the results depend on the processing

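The number of members called lower depended on the tool and the libraries. No share of all tested genes was taken for upper-quartile scaling, limma on log2 FPKM, the replicate block or only the groups compared. None was taken with a library left out either, and none is given here for the covariates within a single diet or within CIA. Whether the members or the whole rate of calls moved in these fits cannot be told from the counts below. For CIA against sham on the regular diet, edgeR called 0 members, DESeq2 50, and a fit with the adipocyte covariate 1. On the high-fat diet edgeR called 13, DESeq2 32, upper-quartile scaling 22, and limma 22 with a pseudocount of either 1 or 0.1 on log2 FPKM. The adipocyte covariate left 7 there, and the skeletal muscle covariate, the length-trend offset and the offset with the adipocyte covariate left 0 each. Leaving out each library in turn gave 0 to 41. Averaged over both diets, the 63 calls became 33 with the muscle covariate, 7 with the length-trend offset and 1 with the offset and the adipocyte covariate, and 0 to 73 with a library left out. For the diets in sham, DESeq2 called 14 and a fit of only the groups compared 7. For the diets in CIA, the 4 calls became 35 with DESeq2, and 0 with the adipocyte covariate, the muscle covariate, only the groups compared, or the offset with the adipocyte covariate, and 0 to 39 with a library left out.

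With the replicate letter as a replicate block, 4 members were called for CIA on the high-fat diet, 59 averaged over both diets and 0 for the diets in CIA. Whether the letters pair samples cannot be decided from these libraries, because each group is small.

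The length-trend offset brought the medians closer to 0. For all members and complexes I to V in turn, it gave -0.21, -0.22, -0.16, -0.26, -0.26 and -0.06 for CIA on the regular diet, -0.29, -0.33, -0.29, -0.29, -0.14 and -0.14 on the high-fat diet, and -0.24, -0.29, -0.25, -0.33, -0.15 and -0.13 averaged over both. For the diets in sham it gave -0.46 for all members, -0.44 for complex I, -0.68 for IV and -0.35 for V, and for the interaction -0.03 for complex V.

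With the adipocyte covariate added to the offset, the same 6 medians were -0.16, -0.17, -0.11, -0.2, -0.19 and -0.06 on the regular diet, 0.07, 0.01, 0.09, 0.08, 0.13 and 0.1 on the high-fat diet, and -0.01, -0.09, 0, -0.11, 0.01 and 0.01 averaged over both. They were -0.34, -0.31, -0.36, -0.54, -0.53 and -0.29 for the diets in sham and -0.17, -0.25, -0.14, -0.22, -0.11 and -0.09 in CIA. Over all alternatives, the fold changes of named genes gave 1860 values, of which 620 kept the direction but lost the call, 8 gained a call, 1211 kept both and 21 turned sign. Calls were lost most often without high-fat sham replicate b (69) and with the length-trend offset (55). The 21 that turned sign all came from the offset with the adipocyte covariate. On the high-fat diet these were Sdhb (0.01), Uqcr11 (0.03), Atp5d (0.08), Ndufa7 (0.16), Ndufb11 (0.11), Ndufb9 (0.24), Ndufs6 (0.1) and Ndufv3 (0.12). Averaged over both diets they were Atp5k (0.2), Ndufv3 (0.02), Cox6c (0.05), Atp5j (0.01), Sdhaf3 (0.07), Cox19 (0.07), Surf1 (0 after rounding), Coq6 (0.07), Pprc1 (-0.11), Idh3g (0.12), Cox7a1 (0.72) and Cox8b (0.47). For the diets in CIA it was Ndufv3 (0.08). The cause was not tested.

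The adipocyte covariate alone took complexes IV and V on the high-fat diet to -0.95 and -0.91, complex V of the diets in CIA to -0.79 and its interaction to -0.02. With a library left out, the medians ranged from -1.17 to -0.7 for complex III on the regular diet, -0.97 to -0.57 for complex I of the diets in sham, -0.75 to -0.35 for complex V of the diets in CIA, and -0.17 to 0.24 and 0.02 to 0.52 for the interaction in complexes I and IV. The Ndufa4l2 to Ndufa4 ratio differed by 0.78 with the offset and by 0.77 to 1.14 with a library left out. Its adjusted p was then 0.05 or more without any regular-diet sham library, high-fat sham replicate a or any high-fat CIA library, which also leave fewer arrangements to permute. Of the other summaries under the alternatives, 1007 stayed within the spread for medians, within 1.5 times the count, or on the same side for the ratios. A median within the spread could still change sign. The interaction median over all members, for one, ranged from -0.08 to 0.26 with a library left out. High-fat sham has 2 libraries, and depth limits only the lowest members, such as Cox6a2.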
